A study of Mus musculus with 2 samples.

Results

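The genes described here are 10 heat shock protein genes: the cytosolic HSP90 genes Hsp90aa1 and Hsp90ab1, the HSP70 genes Hspa1a, Hspa1b and Hspa8, the HSP110 gene Hsph1, the J-protein gene Dnajb1, the mitochondrial chaperonin genes Hspd1 and Hspe1, and the small heat shock protein gene Hspb1. They were picked by name, with results of these data already known, and are 10 of the 48825 genes listed for each library; all 10 were listed in both. The data are single-cell RNA-seq of the parotid, a serous salivary gland, from C3H wild-type female mice, with 1 irradiated (IR) and 1 non-irradiated (control) library. IR mice received 6 Gy a day on 5 consecutive days (30 Gy in all), to the head and neck region only, at 6 to 10 weeks of age, and glands were taken 10 months later, when the mice were about 1 year old. Each library pooled the parotid glands of 2 mice, so mice cannot be told apart, and each condition is a single measurement with no replicate. Glands of both groups went through the same preset enzymatic and mechanical dissociation at 37 °C before cells were captured.

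Heat shock proteins are molecular chaperones: they bind unfolded or immature proteins, keep them from aggregating and release them to fold. HSP70 takes up clients delivered by J-proteins, hands some of them to HSP90, and is recharged by nucleotide exchange factors such as HSP110, whereas the mitochondrial chaperonin and its lid fold proteins inside the mitochondrial matrix. Many of these genes are made at a steady level in unstressed cells, and a subset, led by Hspa1a and Hspa1b, is switched on within minutes of heat or other stress by the transcription factor HSF1, which binds repeats of the sequence GAA in alternating orientation. Warm enzymatic dissociation of tissue is known to switch on the same genes, together with immediate early genes such as Fos and Jun.

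The start regions of some stress-inducible members are shown because they hold short inverted pairs of GAA, a part of the repeats that HSF1 is known to bind. The 250 bases before the annotated start were taken from RefSeq promoters of GRCm38.p6 for the 7 members that had an entry, and searched on both strands for the pairs GAANNTTC and TTCNNGAA, each of which reads the same on either strand. Capitals mark the matches. In the sequences below, Hspa1a lies at chr17:34972157-34972406 (minus strand) and Hspb1 at chr5:135887669-135887918 (plus strand).
Hspa1a: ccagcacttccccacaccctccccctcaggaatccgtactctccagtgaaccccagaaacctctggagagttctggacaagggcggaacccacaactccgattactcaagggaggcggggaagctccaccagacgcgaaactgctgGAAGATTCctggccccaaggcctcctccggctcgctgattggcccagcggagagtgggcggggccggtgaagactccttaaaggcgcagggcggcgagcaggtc
Hspb1: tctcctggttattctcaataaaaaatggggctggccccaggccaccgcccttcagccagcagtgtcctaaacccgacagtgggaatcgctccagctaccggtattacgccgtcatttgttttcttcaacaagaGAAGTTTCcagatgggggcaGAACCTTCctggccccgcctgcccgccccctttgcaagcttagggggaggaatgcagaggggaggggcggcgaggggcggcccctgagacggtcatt
The match in Hspa1a starts at position -104 from the start, and those in Hspb1 at positions -117 and -97. Hspa1b, the neighbouring copy on chromosome 17, had the same pair at -104, and its window was identical to that of Hspa1a at 247 of 250 bases (98.8%).

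Hsph1 had 1 pair and Hspe1 had 3 that overlap and run together into longer repeats, in which GAA and TTC blocks alternate with any 2 bases between them. They are shown as windows of 30 bases, Hsph1 at chr5:149636351-149636380 (minus strand) and Hspe1 at chr1:55088053-55088082 (plus strand).
Hsph1: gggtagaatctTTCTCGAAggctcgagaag
Hspe1: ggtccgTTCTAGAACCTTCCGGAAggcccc
Hspe1 and Hspd1 are transcribed away from each other, and the windows before their starts share 215 bases in 1 of the 2 RefSeq entries of Hspd1, so the Hspe1 element lies in both. Over all 32851 promoter windows in the table, 12.8% held at least 1 pair and 0.466% held a longer repeat of 3 such blocks. The windows of Hspa1a, Hspa1b, Hsph1 and Hspb1 held pairs but no longer repeat, and those of Dnajb1 held neither. Hsp90aa1, Hsp90ab1 and Hspa8 had no entry. The starts used here are those of RefSeq, while the gene coordinates given further below are from GENCODE. By the GENCODE coordinates the Hsph1 match lies inside Hsph1 and the Hspe1 element inside the span of Hspd1. A match is only a run of letters, and neither a match nor its absence was tested for binding or activity.

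The control library kept 3378 cells and 19068309 UMIs (unique molecular identifiers, each standing for 1 captured transcript) and the IR library 5286 cells and 20348028 UMIs, with medians of 2907.5 and 2461.5 UMIs per cell. The cells fell into 17 classes, 16 of them named. The names stand for clusters that resemble a cell type by fixed marker genes, and the heat shock and immediate early genes were kept out of the clustering. Levels are given in CPM, a scale that sets the UMIs of a gene against the UMIs of all genes in that class and library, and are compared for 1 gene across classes, not between genes. The IR over control ratio carries a 95% interval in parentheses that covers counting error only. A gene was counted as lower or higher in a class when it had at least 20 UMIs over both libraries there and its ratio was past 1.5 in that direction. No p-values are given, because 1 library per condition leaves no spread between mice. The 9 acinar markers, among them Amy1 and Bpifa2, summed to 691006 CPM in control and 656866 CPM in IR acinar cells, with none at 0. RNA of 23 secretory genes, made by acinar and duct cells, took 39.1% of control and 27.6% of IR UMIs, and 6.57% and 5.69% of those of B-cells. The leading genes of the naive-like T-cell class included secretory genes (Obp1b, Mucl2 and Scgb2b24) beside Lef1, Dapl1 and Igfbp4, and secretory RNA took 5.95% of control and 4.81% of IR UMIs there. The libraries shared 3 barcodes among the kept cells, and myoepithelial cells did not form a class of their own.

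Summed over the 10 genes, the level was lower after IR in lymphocytes and dendritic cells and close to equal in endothelial cells. Naive-like T-cells (722 control and 1863 IR cells) had 8749 CPM in control and 4829 CPM in IR, a ratio of 0.552 (0.541 to 0.563). B-cells (837 and 828 cells) had 6478 and 3913 CPM, a ratio of 0.604 (0.588 to 0.621). Among the other lymphocytes the ratio was 0.563 in FoxP3+ T-cells, 0.577 in CD8+ T-cells, 0.545 in Cxcr6+ T-cells and 0.492 in NK cells. Dendritic cells, which present antigen to T-cells, had 10696 and 4508 CPM and the lowest summed ratio of the 17 classes, 0.421 (0.3996 to 0.444). Macrophages had 13073 and 8660 CPM (0.662). Endothelial cells held the highest summed level in both libraries, 14901 CPM in control and 14636 CPM in IR, with a ratio of 0.982 (0.934 to 1.03). Acinar cells, which make the saliva proteins, held the lowest on the full total, with 738 and 815 CPM. Their ratio was 1.10 (1.04 to 1.17), and it became 0.994 (0.937 to 1.06) when secretory, mitochondrially encoded and haemoglobin genes and Gm42418 were left out of the total. Those abundant genes took 70.0% of control and 66.7% of IR UMIs in acinar cells, beside 21.5% and 11.2% in plasma cells. Levels were ranked between classes on the full total only, so this share enters the ranks. Over all cells the ratio was 0.788, or 0.659 on the total without those genes. It mixes the class ratios with the larger lymphocyte share of the IR library. Over all cells 4 of the 10 genes, Hsp90aa1, Hspa1a, Hsph1 and Hspb1, were lower by 1.5-fold (6.83% of all genes tested) and none was higher (31.2%).

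**Figure D1:**
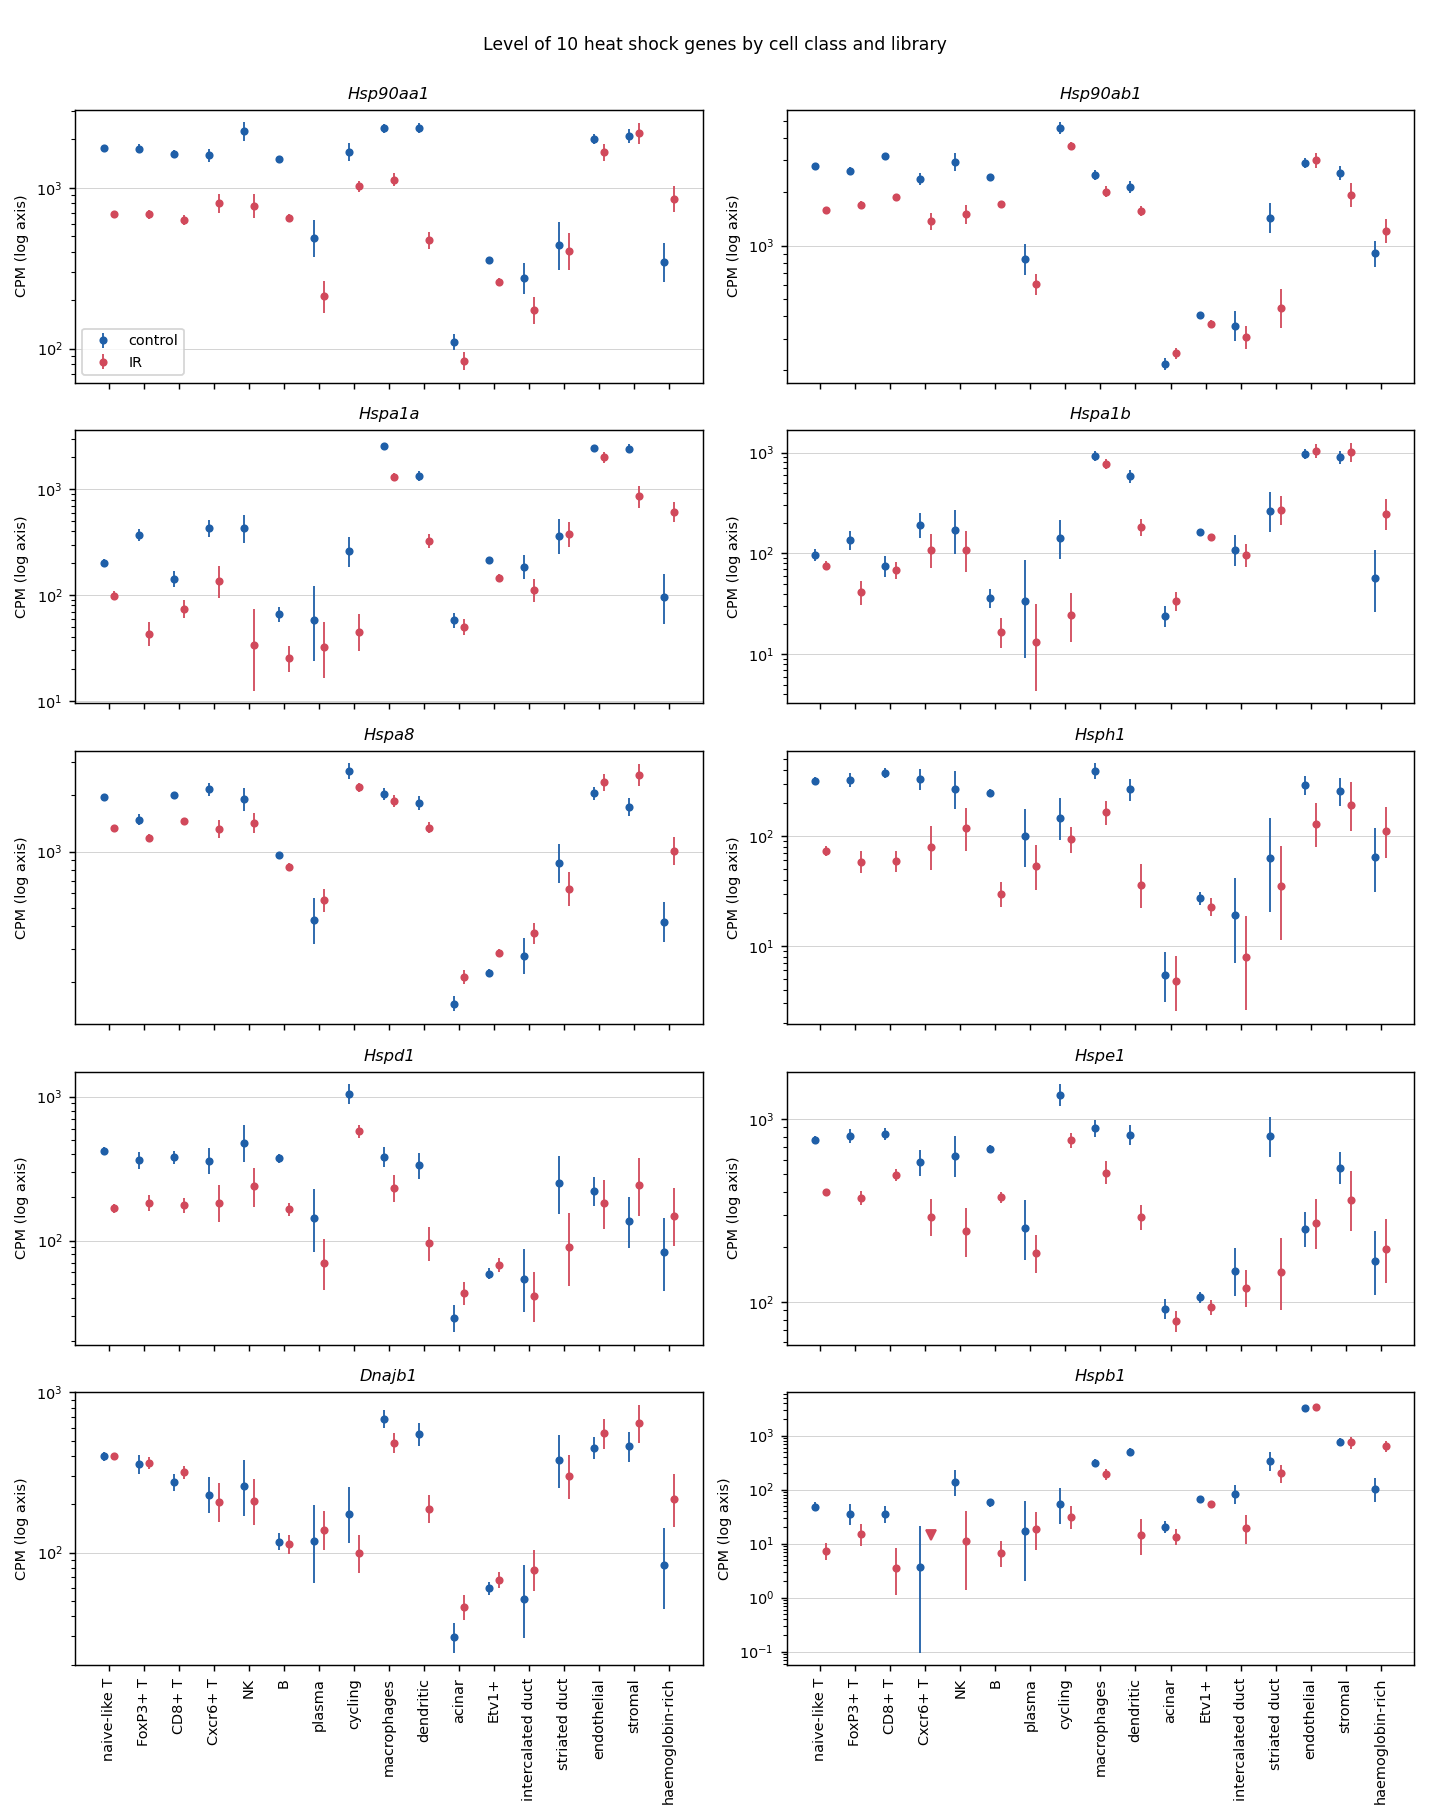
Level of each of the 10 genes in CPM (log axis) in 17 cell classes, control in blue and IR in red; points are class sums and bars 95% Poisson intervals (counting error only), and a triangle marks the upper limit where no UMI was found. Hsp90aa1 and Hsph1 are lower in IR in the T-cell, NK and B-cell classes, Dnajb1 overlaps in those classes, and Hspb1 stands at 3299 and 3443 CPM in endothelial cells.

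Counted by gene, lymphocyte and dendritic classes had 7 or 8 genes lower. In naive-like T-cells 7 of the 10 genes were lower after IR and none was higher, where 3.39% of the 9458 genes tested in that class were lower and 20.5% higher. The count lower was 8 of 10 in FoxP3+ T-cells (6.1% of all genes, with 19.7% higher), 7 of 10 in CD8+ T-cells (5.8%, with 20.3% of all genes higher), 8 of 9 in Cxcr6+ T-cells (9.01%), 7 of 9 in NK cells (13.5%) and 7 of 10 in B-cells (5.32%). Dendritic cells had 8 of 10 lower (9.05%, with 23.2% of all genes higher) and macrophages 6 of 10 (15.6%). Cycling cells had 8 of 10 (14.1%), which became 5 when the control and IR cell with the most UMIs of each gene were left out. In plasma cells 3 of 7 were lower (8.06%) and none higher (40.3%), and without those cells 2 were lower and 2 higher. Since the 10 genes were chosen with these data known, the counts describe them and are not evidence on their own.

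The epithelial, endothelial and stromal classes had between 0 and 4 genes lower. In acinar cells 1 of the 10 genes, Hspb1, was lower (3.88% of all genes) and 1, Dnajb1, was higher (32.4%); without the cells with the most UMIs of each gene none was lower and 2 were higher. None was lower or higher in Etv1+ cells (4.7% lower and 21.3% higher), an epithelial class with acinar, duct and myoepithelial genes. There the intervals of 6 of the 10 ratios lay below 1 and that of 1 lay above it. The summed level was 1682 CPM in control and 1502 CPM in IR Etv1+ cells. Without the cells with the most UMIs of each gene 1, Hspa1a, was lower there (0.648, 0.591 to 0.711). Intercalated duct cells had 3 of 9 lower (20.2%) and 1, Dnajb1, higher (17.8%). Striated duct cells had 4 of 9 lower (60.2%, with 9.87% higher), a share below that of all genes tested in the same class. Endothelial cells had 1 of 10 lower (12%), which was Hsph1. Stromal cells (29 control and 17 IR cells) had 1 lower (24.4%) and 1 higher (20.4%), and 3 and 3 without the cell with the most UMIs of each gene. Of all 170 values of a gene in a class, 163 had enough UMIs. Of these 79 were lower and 11 higher, and 8 of the higher ones were in the haemoglobin-rich class. Between classes the share of all genes lower ran from 3.39% to 60.2%, and the share higher from 9.87% to 70.3%. The pooled counts thus have no single share to stand beside. They also hold the same 10 genes in each class, so they are a tally and not separate observations. The median log2 ratio of the 10 genes was -0.98 in naive-like T-cells, -1.16 in B-cells and -0.00068 in acinar cells, where the median over all genes tested was 0.22, 0.13 and 0.36. Leaving out the abundant genes named above moved the all-gene median in acinar cells to 0.20 and in striated duct cells from -0.85 to -0.28, and left it at 0.21 in naive-like T-cells and 0.12 in B-cells.

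**Figure D2:**
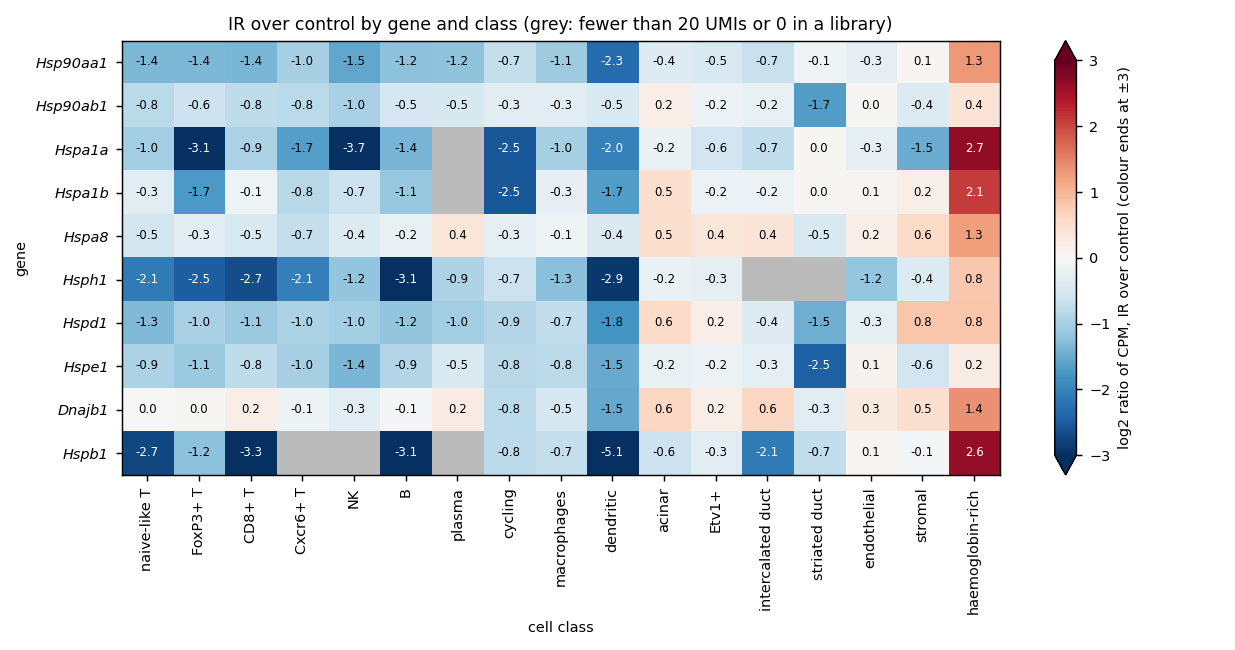
log2 ratio of CPM, IR over control, for each gene (rows) and cell class (columns); blue is lower and red higher after IR, and grey marks fewer than 20 UMIs or a library with 0. Hsp90aa1 and Hsph1 are blue in all T-cell, NK, B-cell and dendritic columns, Hspa8 and Dnajb1 are pale in most lymphocyte columns, and the haemoglobin-rich column is red for 8 of the 10 genes past 1.5-fold.

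HSP90 matures kinases, steroid receptors and other signalling proteins, with Hsp90aa1 as the inducible cytosolic form and Hsp90ab1 as the steady one. Hsp90aa1 (chr12:110690605-110702728, minus strand) stood at 1763 CPM in control and 689 CPM in IR naive-like T-cells, from 3960 and 3148 UMIs, a ratio of 0.391 (0.373 to 0.410). B-cells had 1520 and 649 CPM (0.427), and over the 4 T-cell classes, NK cells and B-cells the ratio ran from 0.342 to 0.503. Its lowest ratio was in dendritic cells, which went from 2355 CPM in control to 472 CPM in IR (0.201, 0.173 to 0.232). Macrophages held nearly the same control level, 2352 CPM, and 1127 CPM in IR. Endothelial cells had 2011 and 1666 CPM, a ratio of 0.829 (0.715 to 0.958), and stromal cells 2099 and 2186 CPM with overlapping intervals. Acinar cells were lowest in both libraries on the full total, at 110.2 and 83.9 CPM. Among the 16 pairs of neighbouring classes in the order of levels, 13 overlapped in control and 12 in IR, so the order within the lymphocytes is largely within counting error.

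Hsp90ab1 (chr17:45567775-45573271, minus strand) had a ratio nearer to 1 than Hsp90aa1 in each lymphocyte class. Naive-like T-cells had 2782 and 1578 CPM (0.567, 0.548 to 0.587), CD8+ T-cells 3169 and 1867 CPM (0.589) and B-cells 2419 and 1711 CPM (0.707). Its highest level in both libraries was in cycling cells, at 4574 and 3632 CPM. That control value rests on 1 cell, which held 380 of the 682 UMIs; without the cell with the most UMIs in each library the ratio turned from 0.794 to 1.11. Striated duct cells had the lowest ratio, from 1434 CPM (114 UMIs) to 446 CPM (64 UMIs), 0.311 (0.226 to 0.427). In the same cells the striated duct markers summed to 68887 CPM in control and 17163 CPM in IR, the secretory share of UMIs was 23.9% and 48.7%, and T-cell markers summed to 62.9 and 446 CPM, and the median UMIs per cell were 723.5 and 2005; the part of these differences in the result was not tested. Endothelial cells were level at 2909 and 3003 CPM.

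Hspa1a and Hspa1b encode the stress-inducible cytosolic HSP70. They are intronless neighbours on chromosome 17 whose coding sequences are 99.6% identical (1918 of 1926 aligned bases), while the sequences after the stop codon align at 61.9% identity. How reads that match both were split is not known from the files, so the sum is given as well. Hspa1a (chr17:34969190-34972156, minus strand) was highest in macrophages, endothelial cells and stromal cells. Macrophages had 2590 CPM in control and 1305 in IR (0.504, 0.451 to 0.562), and endothelial cells 2445 and 2002 CPM (0.819, 0.716 to 0.934). Stromal cells had 2421 and 857 CPM (0.354, 0.272 to 0.456). Lymphocytes stood far lower, with 202 and 99.2 CPM in naive-like T-cells and 65.9 and 25.2 CPM in B-cells. FoxP3+ T-cells, the regulatory subset, had 373 CPM in control and 43.4 CPM in IR, from 223 and 58 UMIs, a ratio of 0.116 (0.0855 to 0.156). A single cell held 18.4% of the control UMIs, and without it the ratio was 0.121. NK cells had 43 and 6 UMIs (0.0793, 0.0276 to 0.187), with 44.2% of the control UMIs in 1 cell.

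Hspa1b (chr17:34956436-34959238, minus strand) differed less between the libraries in naive-like T-cells, with 96.1 and 75.5 CPM (0.786, 0.661 to 0.936), and CD8+ T-cells had 74.6 and 68.0 CPM (0.912, 0.664 to 1.26). FoxP3+ T-cells had 136 and 41.1 CPM (0.303). Endothelial cells had 977 and 1039.9 CPM and stromal cells 896 and 1014 CPM, where Hspa1a was lower in IR stromal cells. The sum of both genes was 298 and 175 CPM in naive-like T-cells (0.587), 509 and 84.5 CPM in FoxP3+ T-cells (0.166), 3518 and 2085 CPM in macrophages (0.593) and 3423 and 3042 CPM in endothelial cells (0.889). In naive-like T-cells the genes were found in the same cells more often than their separate shares would give. With each naive-like T-cell thinned to 1000 UMIs, 23 of 704 control cells held both where 5.87 would if the genes were independent, and 32 of 1820 IR cells where 6.76 would. Among endothelial cells thinned in the same way, 36 of 81 control cells held both where 26.7 would, and 10 of 40 IR cells where 9.45 would.

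Hspa8 encodes the constitutive HSP70, the main HSP70 of unstressed cells, and passed 1.5-fold in only 2 of the 17 classes. These were Cxcr6+ T-cells, which were lower at 2154 and 1321 CPM (0.613), and the haemoglobin-rich class, which was higher. Naive-like T-cells had 1955 CPM in control and 1339.8 CPM in IR (0.685, 0.659 to 0.712) and B-cells 959.9 and 825 CPM (0.860, 0.807 to 0.916). Stromal cells were just inside the threshold, at 1727 and 2572 CPM (1.49, 1.25 to 1.78). Without the cell with the most UMIs in each library the stromal ratio was past it, at 1.96 (1.61 to 2.37). Plasma cells had 428 and 548 CPM (1.28, 0.937 to 1.77). The secretory share in plasma cells was 19.96% in control and 9.37% in IR, and its part in that ratio was not tested. In acinar cells Hspa8 (chr9:40800984-40810087, plus strand) was at 153 and 214 CPM, a ratio of 1.39 (1.23 to 1.58) that became 1.25 on the total without abundant genes, and in Etv1+ cells at 224 and 287 CPM (1.28, then 1.16). Over all cells its ratio changed side with the scaling, from 1.10 to 0.919.

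Hsph1 encodes HSP110, the nucleotide exchange factor that resets HSP70 during disaggregation. It stood lower after IR in each of the lymphocyte classes, in dendritic cells and in macrophages. B-cells had 247 CPM in control and 29.6 CPM in IR, from 574 and 61 UMIs, a ratio of 0.120 (0.0903 to 0.156). CD8+ T-cells had 373 and 58.9 CPM (0.158), FoxP3+ T-cells 325 and 58.3 CPM (0.180) and naive-like T-cells 319 and 73.6 CPM (0.231, 0.202 to 0.263). NK cells had 269 and 119 CPM (0.442), with 10 of the 27 control UMIs in 1 cell. The intervals of the libraries did not overlap in the 4 T-cell classes or in B-cells. The share of cells with a UMI gave the same picture after each cell was thinned to 1000 UMIs. It was 27.0% of 704 control and 7.09% of 1820 IR naive-like T-cells (54.2% and 15.9% unthinned), and 20.8% of 822 and 2.86% of 804 B-cells (38.8% and 6.88% unthinned). Thinning left out the shallower of the 722 and 1863 naive-like T-cells and of the 837 and 828 B-cells. No class is known to lack these genes. Acinar cells, with the lowest level on the full total, held a thinned share of 1.11% in control and 0.829% in IR.

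In endothelial cells Hsph1 (chr5:149614287-149636376, minus strand) was the only member lower by 1.5-fold, at 289 and 129 CPM from 98 and 20 UMIs (0.446, 0.261 to 0.727). Dendritic cells had 267 and 36.1 CPM (0.135), and macrophages 393 and 164 CPM with intervals that did not overlap. In acinar cells it was rare, at 5.44 and 4.74 CPM from 16 and 13 UMIs, which allows a ratio from 0.386 to 1.93. Between neighbouring classes in the order of its levels, 15 of 16 intervals overlapped in control and 15 of 16 in IR.

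Hspd1 (HSP60) forms the mitochondrial chaperonin barrel and Hspe1 (HSP10) its lid, and their genes lie back to back at chr1:55077835-55088243 (minus strand) and chr1:55088132-55091307 (plus strand). Hspd1 was at 421 CPM in control and 168 CPM in IR naive-like T-cells (0.399, 0.362 to 0.439), and at 372 and 164 CPM in B-cells (0.442, 0.389 to 0.502). Hspe1 was at 766 and 398 CPM in naive-like T-cells (0.520, 0.486 to 0.555) and 683 and 373 CPM in B-cells (0.546). Dendritic cells were lower for both, with ratios of 0.287 and 0.354. On the full total acinar cells went the other way for Hspd1, at 28.9 and 43.1 CPM (1.49, 1.12 to 1.99, and 1.34 without the abundant genes). The median log2 ratio over all genes tested in acinar cells was 0.36. They had 91.5 and 78.5 CPM of Hspe1 (0.858, 0.714 to 1.03). Striated duct cells had 805 and 146 CPM of Hspe1, from 64 and 21 UMIs, the lowest ratio of this gene at 0.182 (0.106 to 0.302), with the marker and depth differences given above.

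Cycling cells held the highest level of both chaperonin genes in both libraries, but for Hspe1 in control this rank rests on 1 cell. Hspd1 was at 1046 CPM in control and 573 in IR, but 1 of the 17 control cells held 105 of its 156 UMIs (67.3%). Without the cell with the most UMIs in each library the levels were 531 and 512 CPM and the ratio 0.965 (0.714 to 1.33). For Hspe1, 1 control cell held 143 of the 202 UMIs (70.8%), and the same step turned the ratio from 0.564 to 1.17. In control it left cycling cells at 614 CPM of Hspe1, below macrophages (827 CPM), CD8+ T-cells (822 CPM) and several other classes.

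Dnajb1 is the J-protein that brings stress-damaged clients to HSP70, and in each of the 6 lymphocyte classes the interval of its ratio included 1. Naive-like T-cells had 398 CPM in control and 400.2 CPM in IR, from 894 and 1828 UMIs (1.01, 0.928 to 1.09). FoxP3+ T-cells had 355 and 362 CPM (1.02), CD8+ T-cells 275 and 318 CPM (1.15, 0.989 to 1.35) and B-cells 117 and 112 CPM (0.963, 0.805 to 1.15). In CD8+ T-cells 1 cell held 26 of the 262 control UMIs, and without the cell with the most UMIs in each library the ratio was 1.26 (1.07 to 1.48), an interval above 1. The thinned share of naive-like T-cells with a UMI was 30.1% and 30.2%. Myeloid cells were lower after IR, with 547 and 188 CPM in dendritic cells (0.343, 0.265 to 0.442) and 682 and 483 CPM in macrophages (0.707, 0.582 to 0.858). Acinar cells were higher on the full total, with 29.6 and 45.6 CPM (1.54, 1.16 to 2.05), or 1.39 on the total without abundant genes. The median log2 ratio over all genes tested in acinar cells was 0.36. Dnajb1 lies at chr8:83608193-83612653 (plus strand).

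Hspb1 (HSP27) is a small heat shock protein that holds unfolded proteins without using ATP and binds the actin cytoskeleton. It was the member with the widest range between classes. Endothelial cells had 3299 CPM in control and 3443 CPM in IR, from 1117 and 533 UMIs (1.04, 0.940 to 1.16), and 82.7% and 90% of thinned cells held a UMI. Stromal cells came next with 776 and 749 CPM (0.965, 0.704 to 1.31). Lymphocytes stood far lower: naive-like T-cells had 48.1 and 7.23 CPM from 108 and 33 UMIs (0.150, 0.0986 to 0.224), and B-cells 57.8 and 6.79 CPM from 134 and 14 UMIs (0.118, 0.0626 to 0.204). In control, 8 of 722 naive-like T-cells held 43.5% of the Hspb1 UMIs of that class, and 9 of 837 B-cells held 62.7%. Without the cell with the most UMIs in each library the ratios were 0.154 and 0.123. In thinned naive-like T-cells the share with a UMI was 3.41% and 0.659%, and what free RNA adds to shares this low was not tested. Cxcr6+ T-cells held 1 UMI in control and 0 in IR, which leaves no ratio to give. Dendritic cells had 502 and 14.4 CPM (0.0287, 0.0122 to 0.0582), with 55 of the 143 control UMIs in 1 cell and a ratio of 0.0351 without it. Hspb1 lies at chr5:135887919-135889563 (plus strand).

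The haemoglobin-rich class (33 control and 39 IR cells) is called by its leading genes, Hbb-bt and Hbb-bs, and stood apart. In it 8 of the 10 genes were higher after IR, where 70.3% of all genes tested were higher and 4.68% lower, and the summed ratio was 2.25 (1.98 to 2.56), or 1.20 without the abundant genes. Its 4 red blood cell markers summed to 543970 CPM in control and 255014 CPM in IR, and the 7 endothelial markers to 474 and 2968 CPM. The part of this mixture in the ratios was not tested.

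Per cell, the share was lower over most of the range of lymphocytes. The median share of a cell's UMIs that came from the 10 genes was 0.836% in control and 0.458% in IR naive-like T-cells, and the 75th percentile in IR, 0.601%, lay below the 25th percentile in control, 0.626%. In dendritic cells the medians were 0.899% and 0.390%, again with the IR 75th percentile (0.517%) below the control 25th (0.531%). The same held in CD8+ T-cells, with medians of 0.825% and 0.482% (IR 75th percentile 0.613%, control 25th 0.631%). B-cells overlapped more, with medians of 0.536% and 0.351% and 25th to 75th percentiles of 0.362% to 0.791% and 0.238% to 0.472%. Endothelial cells (1.13% and 1.06%), Etv1+ cells (0.142% and 0.138%) and acinar cells (0.0653% and 0.0646%) had nearly equal medians. In macrophages the medians were close, 0.425% and 0.382%, while the 95th percentiles were 3.70% and 2.92%, so much of their summed level came from a minority of cells with a high share.

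**Figure D3:**
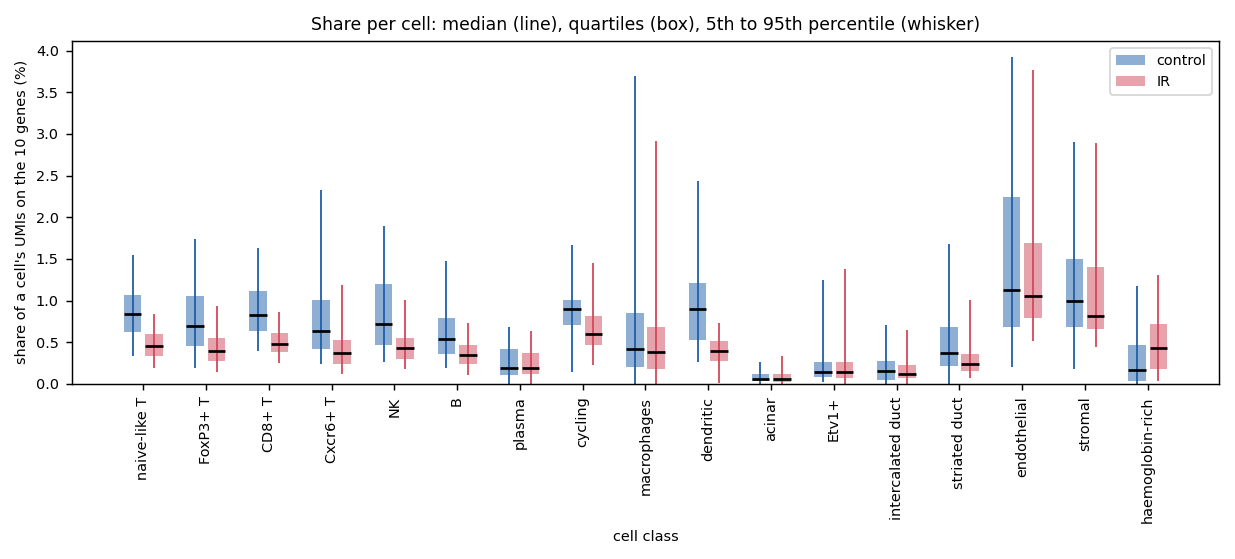
Share of each cell's UMIs on the 10 genes (%), by class, control in blue and IR in red; the line is the median over cells, the box the quartiles and the whisker the 5th to 95th percentile. The IR box lies wholly below the control box in naive-like T-cells (0.340% to 0.601% against 0.626% to 1.06%), CD8+ T-cells and dendritic cells. The boxes overlap in acinar, Etv1+ and endothelial cells.

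Several marker and quality measures differed between the libraries within these classes. In macrophages a list of 4 neutrophil genes summed to 1432 CPM in control and 4360 CPM in IR, with none of the 4 at 0 in either library, and the 7 macrophage markers to 15239 and 17661 CPM. In dendritic cells (56 control and 124 IR cells) the 9 dendritic markers summed to 6632 and 7780 CPM, with 1 marker at 0 in each library. The leading genes of that class included Ccl22 and Fscn1 beside Siglech and Ccr9. Dendritic subsets were not separated, so a shift between them was not tested. T-cell markers in B-cells summed to 187 and 417 CPM. In acinar cells T-cell markers summed to 41.5 CPM in control and 151 CPM in IR, and Etv1+ markers to 785 and 1022 CPM. In endothelial cells 8 myoepithelial markers summed to 67.9 CPM in control, with 4 of them at 0, and 859 CPM in IR, with 2 at 0, while 7 stromal markers summed to 1013 and 1718 CPM and the 7 endothelial markers to 13947 and 16031 CPM. Etv1+ cells had a median of 21842 UMIs in control and 5570.5 in IR. In them all 8 myoepithelial markers were at least 2-fold above the other cells, with both libraries pooled. These markers summed to 139 CPM in control and 121 CPM in IR Etv1+ cells, with none at 0. Median mitochondrial shares were 2.26% and 2.74% in naive-like T-cells and 2.75% and 3.22% in B-cells. The part of each of these in the ratios was not tested, and whether radiation, the pooled mice or the handling of each suspension set a difference between the libraries cannot be told apart.

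Other chaperones had summed levels nearer to equal in lymphocytes. A list of 27 HSF1 and HSP70 or HSP90 co-chaperone genes had 4 lower and none higher in naive-like T-cells (3.39% of all genes lower and 20.5% higher) and a summed ratio of 0.890 (0.862 to 0.918). The lower genes were the HSP70-HSP90 organiser Stip1 (108 and 53.2 CPM, 0.492), the HSP90 activator Ahsa1 (176 and 94.8 CPM, 0.538), Chordc1 (0.622) and Hsf2, a heat shock factor with few UMIs (0.626, 0.264 to 1.52). In B-cells 6 of 26 were lower and 1 higher (5.32% and 14.2% of all genes), with Stip1 at 93.1 and 47.0 CPM (0.505), Hspa4l at 0.491 and Bag3 at 0.375 (0.107 to 1.09), while Dnajb4 was higher at 13.8 and 28.1 CPM (2.04, 1.30 to 3.24). Dnaja1, the J-protein partner of Hspa8, was at 631 and 431 CPM in naive-like T-cells (0.682) and 315 and 196 CPM in B-cells (0.623). Hsf1 itself was at 13.4 and 17.1 CPM in naive-like T-cells (1.28, 0.830 to 2.02).

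The cytosolic chaperonin TRiC, which folds actin and tubulin, had none of 8 subunits lower or higher in naive-like T-cells or B-cells. Its summed ratios were 0.955 and 0.982. Of all genes 3.39% were lower and 20.5% higher in naive-like T-cells, and 5.32% and 14.2% in B-cells. For lists this short, a count of none lower is close to those shares. Of 9 other mitochondrial chaperones and proteases none was lower in either class, again close to the share of all genes, and 1 was higher in naive-like T-cells. Their summed ratios were 1.01 and 1.01. Hspd1 and Hspe1 of the same compartment were lower in both classes. Chaperones of the endoplasmic reticulum summed to ratios of 0.954 and 1.004, with Dnajb9 higher in both classes (1.83 and 1.66). In acinar cells the co-chaperones had 8 of 19 higher and none lower, where 32.4% of all genes were higher, led by Ptges3 (5.78 and 17.5 CPM, 3.03), Hspa4 (2.27) and Dnaja2 (2.07). Endoplasmic reticulum chaperones, which fold secreted proteins, had 4 of 15 higher there, a smaller share than that of all genes, among them Canx (14.6 and 29.9 CPM, 2.05) and Hsp90b1 (23.5 and 46.7 CPM, 1.99). On the total without abundant genes 7 co-chaperones and 2 endoplasmic reticulum chaperones were past 1.5-fold. Etv1+ cells had 8 of the 15 higher (21.3% of all genes), or 2 on that total, including Hspa5 (176 and 281 CPM, 1.60) and Hsp90b1 (70.7 and 137 CPM, 1.94). Of 5 ubiquitin genes none was past 1.5-fold in naive-like T-cells or B-cells, beside the shares of all genes given above for these classes. Of 5 other small heat shock protein genes only Cryab had enough UMIs in naive-like T-cells (1.31, 0.488 to 4.09) and acinar cells (10.5 and 16.8 CPM, 1.59, 0.988 to 2.60). Of 8 genes listed as receptors of extracellular heat shock proteins, none had enough UMIs in naive-like T-cells or acinar cells, and Cd40 (1.13) and Cd36 (1.16) did in B-cells.

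Immediate early genes such as Fos and Jun respond within minutes to stimulation and to tissue dissociation. The list of 21 used here also holds Klf2, which the study describes as high in naive T-cells and lowered by receptor activation. The listed genes stood on the opposite side in naive-like T-cells, CD8+ T-cells, NK cells and B-cells, and nearer to all genes in FoxP3+ and Cxcr6+ T-cells. In naive-like T-cells 13 of 21 were higher after IR and none lower (20.5% of all genes were higher), with a summed ratio of 1.73. Jun was at 178 CPM in control and 717 CPM in IR (4.03, 3.63 to 4.48), Fos at 83.7 and 313 CPM (3.74, 3.21 to 4.38) and Rhob at 22.7 and 72.0 CPM (3.17). The lowest was Nfkbia, an inhibitor of NF-kB, at 308 and 226 CPM (0.731). In CD8+ T-cells 16 of 21 were higher (20.3% of all genes, summed ratio 1.79) and in B-cells 12 of 21 (14.2% of all genes, summed ratio 1.33), with Fos at 97.0 and 283 CPM (2.92), Rhob at 2.60 and Egr1 at 2.58. FoxP3+ T-cells had 6 of 20 higher and 1 lower (19.7% and 6.1% of all genes, summed ratio 1.22). Their median log2 ratio was 0.26, beside 0.18 over all genes. Cxcr6+ T-cells had 6 of 19 higher and 1 lower (23.9% and 9.01% of all genes, summed ratio 1.14). The median there was 0.22, beside 0.20 over all genes. NK cells had 8 of 18 higher and 2 lower (19.1% and 13.5% of all genes, summed ratio 1.34). Acinar cells had 8 of 21 higher (32.4% of all genes) and 1 lower, led by Rhob, Klf2 and Btg1 at ratios of 2.41, 2.30 and 2.12, with Jun at 148 and 141 CPM. In Etv1+ cells 4 were lower and 1 higher (4.7% and 21.3% of all genes), with Dusp1 at 0.563 and Fos at 436 and 260.1 CPM (0.597).

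**Figure D4:**
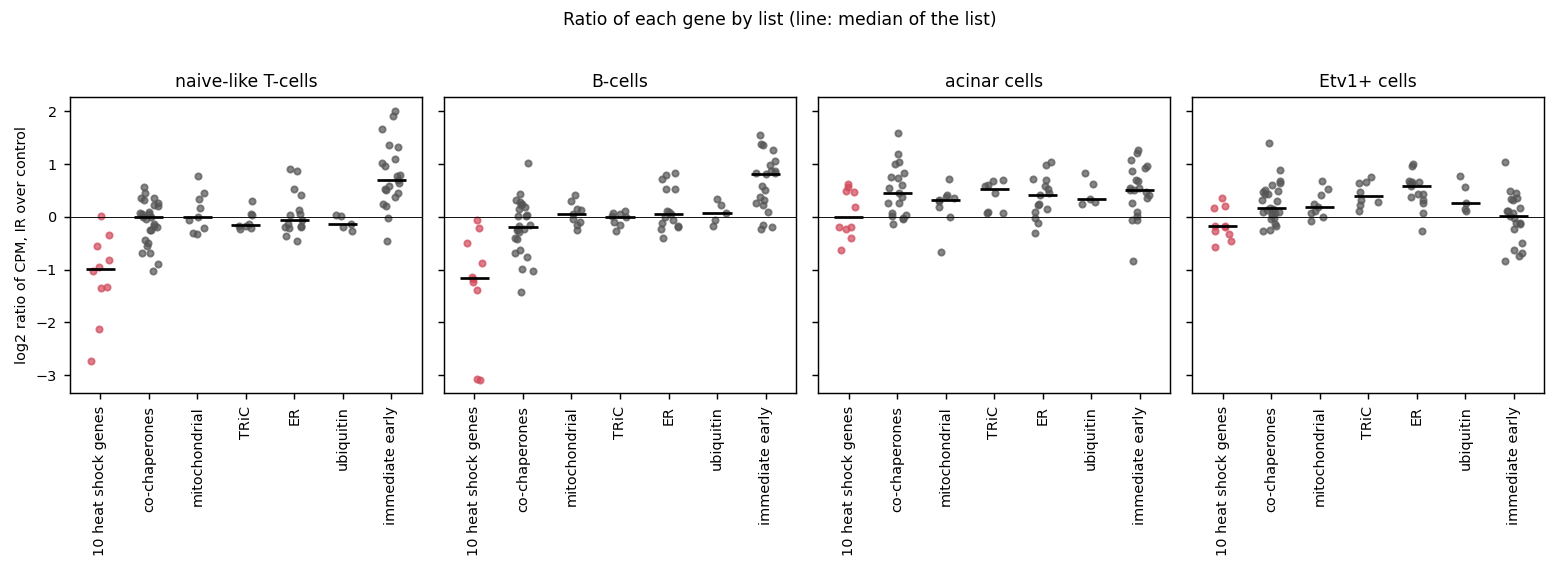
log2 ratio of CPM, IR over control, for each gene with at least 20 UMIs, grouped by list in 4 cell classes; the 10 heat shock genes are in red, the other lists in grey, and the line is the median of each list. In naive-like T-cells and B-cells the red genes have medians of -0.98 and -1.16 while the immediate early genes have medians of 0.70 and 0.81, and in acinar and Etv1+ cells all list medians drawn lie between -0.18 and 0.59.

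Across the 34 class and library units, the pattern of each gene was compared with the others on log2(CPM + 10). The units share libraries, depth and free RNA, so the correlations are a description. Hsp90aa1 was most like Dnaja1 (Pearson r = 0.947), Chd4 (0.905) and Golgb1 (0.877) among 5260 genes outside the 10. Among the members it was close to Hsph1 (0.936) and Hsp90ab1 (0.909) and far from Hspb1 (0.441). The genes most like Hspd1 included Stip1 (0.923) and Ahsa1 (0.905), and its r with Hspe1 was 0.918. Hspa1a was most like Tnfrsf12a (0.827), Anxa5 (0.820) and the HSP70 co-chaperone Bag3 (0.818), with 0.955 for its copy Hspa1b, 0.815 for Hspb1 and 0.270 for Hspd1. Hspb1 was most like Gas6 (0.877), App (0.875) and Ifitm3 (0.860).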

How the data were processed

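The deposited files hold UMI counts per gene and barcode for 1 IR and 1 control library; the authors made them with Cell Ranger 3.0.1 from 10x Chromium v3 libraries aligned to mm10 (GRCm38), and named Seurat 3 in the submitters' processing notes. The annotation version and the treatment of reads that match several genes are not given in the sources used here. Groups come from the treatment label. A barcode was kept where it held 200 genes or more and no more than 5% of its UMIs were mitochondrial, as in the study's methods (3378 of 5550 control and 5286 of 7793 IR barcodes). Anchors from Seurat 5.3.0 (R 4.3.3) joined the libraries before graph clustering (2000 variable genes, 30 components, resolution 0.3, with splits of some clusters at 0.8), leaving heat shock and immediate early genes out. Clusters were named from fixed markers; the splits and final names were set after the clusters were seen, so they can differ from the study's annotation. Doublets were not removed, because the caller used (Scrublet in scanpy 1.11.5) did not separate a doublet group in the IR library. UMIs were summed per class and library and scaled to CPM with exact Poisson intervals, ratios have exact conditional binomial intervals and shares Clopper-Pearson intervals (95%, scipy 1.17.1), all for counting error only. Thinned shares use 1000 UMIs per cell. The self-test on simulated data put the true ratio inside 95.8% of intervals in B-cells (8312 genes) and found 172 of 187 changed genes past 1.5-fold. All changes set in it were larger than 1.5-fold, so this recovery was largely built in and does not cover changes near the threshold. The simulated counts were drawn with counting error alone, which is what the intervals assume, so the coverage was built in as well. Clumping of UMIs in single cells and spread between mice were not simulated, so it does not show how the intervals cover those. The 10 members, the lists and the alternatives were chosen with earlier results of these data known. Named genes are the 10 members, up to 3 highest and lowest genes of each list in B-cells, T-cells and acinar cells, and the 3 genes most like Hspa1a, Hsp90aa1, Hspd1 and Hspb1 (units of at least 20000 UMIs, genes of at least 500), 1 of which is not reported here; Dnaja1, Chordc1, Hsf1 and the genes named in Etv1+ cells were added after their values were seen. TMM factors came from edgeR 4.0.16.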

Additional observations from a re-analysis of the deposited data

Results flagged for a closer look

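With the haemoglobin-rich class left out, the interval of the ratio on the full total excluded 1 on opposite sides in different cell classes for 5 of the genes. None of these differences between classes was tested, because each condition is 1 library. Hsp90ab1 had an IR over control ratio of 0.311 in striated duct cells and 1.15 in acinar cells. Hspa1b had 0.173 in cycling cells, from 21 and 14 UMIs, and 1.41 in acinar cells. Of the 21 control UMIs in cycling cells 13 were in 1 cell (61.9%), and without the cell with the most UMIs in each library the ratio was 0.288 (0.102 to 0.840). Hspa8 had 0.613 in Cxcr6+ T-cells and 1.49 in stromal cells, or 0.604 and 1.96 without the cell with the most UMIs in each library. Hspd1 had 0.287 in dendritic cells and 1.49 in acinar cells, and Dnajb1 had 0.343 and 1.54 in the same pair of classes. The acinar ratios were 1.03, 1.27, 1.34 and 1.39 for Hsp90ab1, Hspa1b, Hspd1 and Dnajb1 when the abundant genes were left out of the total. On that total the intervals of 3 of the 10 acinar ratios lay above 1, beside 5 on the full total. TMM factors shift the log2 of every acinar ratio by -0.41, and the ratio of Hsp90ab1 under them, given below, lay below 1. How far the acinar ratios lie above 1 thus depends on the scaling, and for Hsp90ab1 so does the side. In striated duct cells the abundant genes took 28.5% of control and 51.8% of IR UMIs. The part of this in the ratio of 0.311 was not tested.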

How the results depend on the processing

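Of 1486 recomputed ratios, 1286 stayed within the counting interval of the main ratio and 181 moved outside it. Another 19 changed side where that interval excluded 1. These ratios are of single genes in all cells and in part of the classes, and of the 10 genes summed in some of those classes. The NK, Cxcr6+ T-cell, plasma, striated duct, stromal and haemoglobin-rich classes were not among them. On the total without abundant genes the summed ratio was 0.659 in all cells, 0.994 in acinar cells and 0.811 in Etv1+ cells, Hspa8 in all cells was 0.919, and 7 and 2 genes were lower in all and Etv1+ cells. With TMM factors the summed ratios were 0.611 in all cells, 0.481 in naive-like T-cells, 0.516 in FoxP3+, 0.524 in CD8+ T-cells, 0.549 in B-cells, 0.831 in acinar, 0.729 in Etv1+ and 1.04 in intercalated duct cells, Hspa8 in all cells was 0.851, Hsp90ab1 in acinar cells 0.862, and 7, 5 and 3 genes were lower in all, acinar and Etv1+ cells. With all cells weighing the same the summed ratios were 0.643 in all cells (7 genes lower), 0.542 in FoxP3+ T-cells and 0.994 in Etv1+ cells, Hspa8 was 0.884 in all and 1.02 in cycling cells, Hspa1b was 0.939 in acinar cells, 1.26 in Etv1+ cells and 1.11 in macrophages, and Hspb1 in acinar cells was 1.24. A mitochondrial limit of 10%, or none, gave 0.80 and 0.803 in all cells and 0 genes lower in acinar cells, with Hspa8 at 0.974 in endothelial cells under the first and a summed ratio of 0.920 in Etv1+ cells under the second. At least 500 genes per cell gave 0.776 in all cells, and Hspb1 at 1.13 in Etv1+ cells. Clustering on all variable genes, or without integration, gave 0.923 and 0.929 in Etv1+ cells and Hspb1 there at 1.08 and 1.23; the first gave 0.537 in FoxP3+ T-cells and the second 0.540 in naive-like T-cells. Leaving out the 6% highest doublet scores gave 0.801 in all cells. Without the 1% of cells with the highest share, Hsp90ab1, Hspa8 and Hspe1 in cycling cells were 1.12, 1.03 and 1.19; without the cell with the most UMIs of the gene, an alternative chosen after seeing the data, Hsp90ab1 and Hspe1 were 1.11 and 1.17. A threshold of 2-fold left 4 members lower in CD8+ T-cells and 0 in acinar cells (both chosen after seeing the data), 1 and 2 co-chaperones lower in naive-like T-cells and B-cells, and 7, 5 and 3 immediate early genes higher in naive-like T-cells, B-cells and acinar cells; with no minimum of UMIs 1 co-chaperone was lower in acinar and in Etv1+ cells. The cause of these shifts was not tested. Scaling without abundant genes or with TMM factors moves every gene of a class by the same factor. The share of all genes lower or higher was not recomputed under any alternative, so the counts of genes given here stand without it. No paired analysis was possible because each condition is 1 library. Classes of fewer than 100 cells, and genes under 20 UMIs, limit what depth can show, and the edges of clusters moved by a few cells with the processor kernel of the linear algebra library.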

Other observations

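Barcodes left out of the comparisons carried the 10 genes too. Their summed level in control was 4076 CPM in 727 barcodes with 5 to 10% mitochondrial UMIs, 3069 CPM in 533 barcodes above 10% and 487 CPM in 912 barcodes with under 200 genes, beside 4454 CPM in the kept cells. In IR the same groups held 3988, 2778 and 470 CPM, from 971, 887 and 649 barcodes, beside 3512 CPM in the kept cells. In barcodes with 5 to 10% mitochondrial UMIs Hspa1a was at 349 CPM in control and 269 CPM in IR, against 301 and 140 CPM in the kept cells, and Hsph1 at 127 and 70.4 CPM against 137 and 46.1 CPM. In control naive-like T-cells thinned to 1000 UMIs, 38 of 704 held both Hspa1a and Dnajb1 where 21.1 would if the genes were independent, and 51 of 1820 IR cells where 35.0 would. Hspd1 and Hspe1 fell together in 127 control naive-like T-cells where 128 would, and in 80 IR naive-like T-cells where 84.2 would. In thinned B-cells they did so in 124 control cells where 110 would, and in 41 IR cells where 34.1 would. IR CD8+ T-cells had 17 where 22.9 would, and other classes went either way.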
